A study of Mus musculus with 6 samples.

Results

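A set of 10 genes of the complement and coagulation systems was followed in 32D cells, a mouse myeloid cell line that depends on interleukin-3: C1s1, C1ra, C1rl, Serping1, Clu, F13a1, Cfp, C3, C5ar1 and F10. On the arrays 18194 genes had a probe set of their own. C1s1 and F13a1 were chosen because they differed between the same 2 groups of arrays that are described below, and the other members for their place in the same systems with those differences known. The differences of the members are therefore a description, and counts of calls among them are given for completeness and support nothing. In the annotation used here 8 members had probe sets and C1rl and C3 had none, so these 2 were not analysed here. The 8 members had 16 probe sets, of which 15 carried 1 gene symbol and 1 carried both C1rb and C1ra.

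The study compared 3 samples in which miR-9 and miR-9*, the strands of 1 microRNA precursor, were overexpressed with 3 samples of the same line carrying the empty vector. The expression construct is labelled C2-MiR-9 in the first group and A1-EV in the second. All 6 cultures grew in RPMI with 10% fetal calf serum, penicillin, streptomycin and 10 ng/ml murine interleukin-3, and 6 ug of total RNA was labelled for 1 array per sample. The samples are called independent replicates and numbered 1 to 3 in each group, without a statement of how the cultures were separated. How the constructs were delivered, and whether a group is 1 clone or a pool, is not given in the sources used here. Each value is a MAS5 signal, the intensity of a probe set after its probe pairs are combined, and every array is scaled to a trimmed mean of 100. The median over probe sets was between 11.99 and 15.2 on the 6 arrays. Of 12 genes that mark such cells, 9 were above the limit for dim probe sets, among them Ptprc, Spi1, Prtn3, Csf2rb and Myb, while Kit, Cd34 and Elane were below it. These genes were not all level between the groups. Csf2rb, a chain of the interleukin-3 receptor, read 2050.4, 974 and 2182 in miR-9/9* cells, against 2736, 1244 and 2675 in empty vector cells, overlapping but lower in every number. It fell by 0.35 on the scale log2(signal + 16) (limma with the replicate number as a block, adjusted p = 0.0361, against 0.999 without it) and was called in 5 of 9 settings with the block. Without the block the difference was between -0.72 and 0.018 when single arrays were left out. Csf2rb was the only 1 of these 9 genes called with the block, where 2.96% of all genes tested were. Of the other interleukin-3 receptor genes in the list, Csf2rb2 stood at -0.01. Il3ra stood at -0.39, with all miR-9/9* arrays below all empty vector arrays. Neither passed (limma with the block, adjusted p = 0.963 for Csf2rb2 and 0.183 for Il3ra). Mpo, myeloperoxidase, read 1629, 126 and 288 in miR-9/9* cells, against 345, 132 and 60.0 in empty vector cells, and did not pass (adjusted p = 0.0726 with the block and 0.999 without it).

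Complement is a cascade of plasma proteases that tags particles for uptake and lysis. Its classical branch starts with C1, in which C1q recognises the target and the proteases C1r and C1s are activated in turn, under the control of the C1 inhibitor. Coagulation is a parallel cascade in which factor X is cut to make the enzyme that produces thrombin, and factor XIII finally cross-links fibrin. Most of these proteins are made by the liver, but monocytes, macrophages and megakaryocytes make several, including the A subunit of factor XIII, properdin and C1q.

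The introduced strands are shown because they define the groups. Both were taken from RefSeq (GRCm38.p6), where 3 genes, Mir9-1, Mir9-2 and Mir9-3, give the same mature sequences. Capitals mark the seed, bases 2 to 8. The 5p strand is miR-9 and the 3p strand miR-9*.
mmu-miR-9-5p: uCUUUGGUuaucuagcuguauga
mmu-miR-9-3p: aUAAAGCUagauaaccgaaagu
The seeds of the strands differ, so they do not belong to 1 seed family.

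C1s1 encodes C1s, the protease of C1 that cuts C4 and C2. Its only probe set, 1424041_s_at, read 165, 90.6 and 109 in miR-9/9* cells of numbers 1, 2 and 3, against 9.07, 11.8 and 7.998 in empty vector cells. All miR-9/9* arrays were far above all empty vector arrays, and the empty vector arrays lay under 12.9, the signal below which a probe set counts as dim here. On the scale log2(signal + 16) the difference was 2.39, and within the numbers it was 2.86, 1.94 and 2.39 (SD 0.457, n = 3). That is 5.26-fold on the shifted signal. It had rank 1 by increase among the 10209 genes tested. Because the empty vector signals are dim, the size depends on the constant added: with 1 in place of 16 the difference was 3.50 and with 64 it was 1.32. The suffix of this probe set marks probes shared by several transcripts, and the neighbouring paralogue C1s2 had no probe set of its own in the annotation used here, so the 2 paralogues cannot be told apart here.

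C1ra encodes C1r, the protease that activates C1s. Its own probe set, 1417009_at, read 13.1, 11.4 and 10.2 in miR-9/9* cells, against 0.879, 0.481 and 8.41 in empty vector cells. A second set, 1456437_x_at, is annotated to both C1rb and C1ra and stands for neither alone. It read 21.5, 9.85 and 14.6 in miR-9/9* cells, against 2.97, 5.53 and 0.650 in empty vector cells. In both sets all miR-9/9* arrays were above all empty vector arrays, with log2 differences of 0.54 and 0.71. Both sets had mean log2 values under the limit for dim probe sets, where MAS5 signals are least certain. The C1ra set was not tested for that reason. The shared set, with more than 1 symbol, could not represent a gene in the fit at any signal. Serping1 encodes the C1 inhibitor, which removes active C1r and C1s from the complex. Its set read 8.61, 5.61 and 14.7 in miR-9/9* cells, against 11.6, 8.30 and 0.477 in empty vector cells. The groups overlapped, 1 of 3 numbers was higher, and this member too was dim. The C1q chains, the recognition part of C1, did not exceed 1.27 (C1qa), 7.30 (C1qb) and 15.8 (C1qc) on any array.

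**Figure D1:**
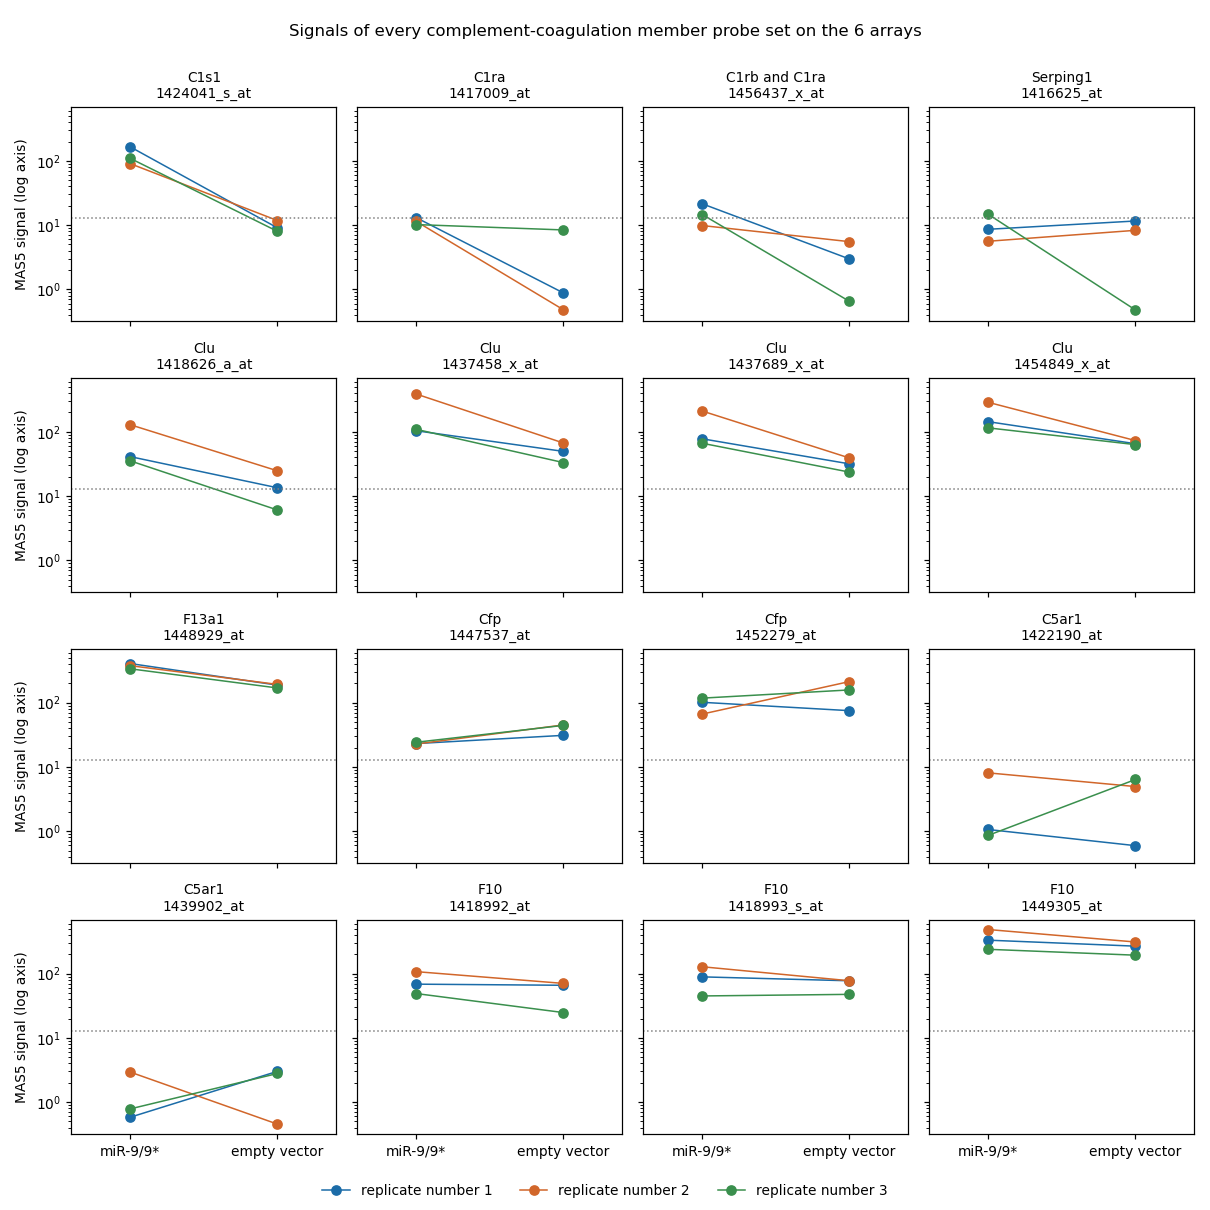
MAS5 signals (vertical log axes) of the 16 member probe sets in miR-9/9* cells (left of each panel) and empty vector cells (right). Each point is 1 array, lines join arrays of the same replicate number, and the dotted line is the limit for dim probe sets at a signal of 12.9; C1s1 lies above it in all 3 miR-9/9* arrays and below it in all 3 empty vector arrays.

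Promoter sequences of C1s1, C1ra and F13a1 are printed because all sets of these genes were higher in miR-9/9* cells in every number. The Clu sets were so too, and no Clu promoter is shown because the table used holds none. The windows are the 300 bases from 250 before to 50 after the start in RefSeq (GRCm38.p6), of which C1s1 and F13a1 have 2 in the table. For C1s1 the more upstream start is printed (chr6:124542310-124542609, minus strand). The others are C1ra (chr6:124512371-124512670, plus strand), F13a1 start 1 (chr13:37050195-37050494, minus strand) and F13a1 start 2 (chr13:37049164-37049463, minus strand). Capitals mark matches on either strand to 3 motifs. The first is that of GATA factors, spelled AGATAA. The second, bound by ETS factors such as the myeloid regulator Spi1, is spelled GAGGAA. The third, bound by STAT factors, is TTCNNNGAA, which reads the same on both strands.
C1s1: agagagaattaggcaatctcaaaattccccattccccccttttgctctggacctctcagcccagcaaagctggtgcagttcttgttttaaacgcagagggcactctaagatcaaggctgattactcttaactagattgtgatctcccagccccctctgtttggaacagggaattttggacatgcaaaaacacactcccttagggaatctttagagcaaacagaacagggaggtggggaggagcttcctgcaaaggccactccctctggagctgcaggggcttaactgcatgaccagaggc
C1ra: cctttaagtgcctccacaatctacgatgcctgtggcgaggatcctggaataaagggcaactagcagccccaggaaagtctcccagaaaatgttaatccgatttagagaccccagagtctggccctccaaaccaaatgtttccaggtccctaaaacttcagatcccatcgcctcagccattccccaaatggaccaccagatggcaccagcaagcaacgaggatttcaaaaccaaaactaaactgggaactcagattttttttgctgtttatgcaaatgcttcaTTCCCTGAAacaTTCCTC
F13a1 start 1: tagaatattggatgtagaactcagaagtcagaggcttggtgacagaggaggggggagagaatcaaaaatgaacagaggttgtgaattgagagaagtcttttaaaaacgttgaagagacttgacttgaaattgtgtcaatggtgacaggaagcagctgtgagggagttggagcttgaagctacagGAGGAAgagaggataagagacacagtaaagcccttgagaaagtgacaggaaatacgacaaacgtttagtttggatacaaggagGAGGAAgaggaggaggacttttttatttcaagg
F13a1 start 2: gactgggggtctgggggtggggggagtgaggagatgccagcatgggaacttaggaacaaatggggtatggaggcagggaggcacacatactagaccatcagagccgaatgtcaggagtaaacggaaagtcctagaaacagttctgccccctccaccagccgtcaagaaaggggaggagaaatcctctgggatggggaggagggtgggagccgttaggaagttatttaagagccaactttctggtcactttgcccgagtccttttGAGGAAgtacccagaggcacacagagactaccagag
The ETS letters were found at 2 places in the first F13a1 window, 1 in the second and 1 in C1ra, and at 0 in either C1s1 window. They occur in 28.3% of the 32851 promoters in the table. The STAT letters were found in the C1ra window only, 32 bases after the start, and occur in 8.30% of all promoters. The GATA letters, present in 11.2% of all promoters, were not in any window of these 3 genes. No 2 matches overlapped. Of all 10 members, 8 had a promoter in the table, and Cfp was the only other one with the ETS letters, at 2 places. A match describes letters and not binding.

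F13a1 encodes the catalytic A subunit of factor XIII, a transglutaminase that cross-links fibrin. Probe set 1448929_at read 407, 377 and 337 in miR-9/9* cells, against 188, 193 and 169.5 in empty vector cells. The groups were widely separated and the arrays of each group lay close together. The log2 differences within the numbers were 1.05, 0.91 and 0.93 (mean 0.97, SD 0.0762), or 1.95-fold on the shifted signal, which gave it rank 22 by increase. This was the smallest spread among the member probe sets above the limit. F13b, the carrier subunit, was dim, at no more than 4.33 on any array. Of 7 transglutaminase relatives with a probe set 3 were above the limit, and 0 were called with or without the replicate block. Of all genes tested, 2.96% were called with the block and 0.0588% without it. Tgm2, tissue transglutaminase, averaged 4305 ± 754 in miR-9/9* cells and 3778 ± 325 in empty vector cells (SD, n = 3 each).

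F13a1 message is known from monocytes, macrophages and megakaryocytes, so markers of these cells stand beside it. In a culture measured in bulk, a change in the number of cells of a type and a change in RNA per cell cannot be told apart. Markers were read at the brightest set of each gene. Of 12 monocyte and macrophage markers with a probe set, 5 were higher and 2 lower in every number. Among all probe sets on the array, dim ones included, 17.4% were higher and 13.4% lower. With or without the block 0 of the 7 monocyte and macrophage markers above the limit were called. Of all genes tested 2.96% were called with it and 0.0588% without it. These shares are set beside the counts of either marker list. The summed signal of the monocyte and macrophage markers was between 755 and 1145 in miR-9/9* cells and between 792 and 895 in empty vector cells. The brightest of the list were Cd68, Fcgr1, Adgre1 and Cd14. Cd68 was lower in every number, at a log2 difference of -0.46. Fcgr1 (0.35, at its brighter set), Adgre1 (0.34) and Cd14 (0.58) were higher in every number. Ly86, Marco, Vcan and Irf8 did not exceed the limit on any array, and Ly86, the gene next to F13a1, read at most 9.80. Of 12 megakaryocyte and platelet markers, 5 were higher and 1 lower in every number, and 3 of the 8 above the limit, Itgb3, Gp9 and Gp5, were called higher with the block, where 1.51% of all genes tested were. Without the block 0 of them passed at the settings used throughout, and Itgb3 passed in 3 of 14 other settings. Itgb3, the beta chain of the platelet fibrinogen receptor, read 149, 161 and 83.8 in miR-9/9* cells, against 22.9, 34.5 and 15.5 in empty vector cells. The groups were widely apart, and the log2 difference of 1.85 was larger than that of F13a1 (limma with the block, adjusted p = 0.000500, against 0.0741 without it). Averaging its probe sets gave 1.06, and adding 64 in place of 16 gave 1.12. Gp9, of the von Willebrand factor receptor, rose by 0.80 with overlapping groups (limma with the block, adjusted p = 0.00192, against 0.999 without it), and stood at 0.50 without miR-9/9* replicate 2. Gp5, of the same receptor, rose by 0.38 (limma with the block, adjusted p = 0.0446, against 0.999 without it) and was called in 3 of 9 settings with the block, Itgb3 and Gp9 in 9 of 9. The summed signal of all 12 megakaryocyte and platelet markers was between 1667 and 2738 in miR-9/9* cells. In empty vector cells it was between 1402 and 2341, so the ranges of this sum overlapped. Most of the list was thus above the limit, led by Itga2b, which read between 946 and 1645 over the 6 arrays, while Ppbp and Clec1b stayed at or below 10.7. The part of either cell type in the F13a1 value was not tested.

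C1s1, C1ra and Serping1 are also products of stromal cells and hepatocytes. All 9 fibroblast and stromal markers with a probe set were dim, the highest single reading being 17.7 for Col1a2. All 8 hepatocyte markers were dim as well, with Alb at no more than 7.95 and Apoc3 at no more than 16.1. Summed signals were between 40.1 and 49.9 in miR-9/9* cells and between 36.3 and 71.3 in empty vector cells for the stromal list. For the hepatocyte list they were between 37.4 and 48.8 in miR-9/9* cells and between 22.6 and 36.7 in empty vector cells, without overlap. At their brightest sets 2 of the 8 hepatocyte markers, Serpina1c and Tat, were higher in every number and 0 lower, all at dim signals. Over all probe sets 17.4% were higher and 13.4% lower in every number. Serpina1c read 5.74, 4.88 and 6.19 in miR-9/9* cells, against 0.418, 0.308 and 1.02 in empty vector cells.

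Clu encodes clusterin, a secreted chaperone that blocks the terminal complement complex. It had 4 probe sets, which report on 1 gene and are not independent. The brightest, 1454849_x_at, read 144, 288 and 115 in miR-9/9* cells, against 65.2, 73.0 and 63.1 in empty vector cells. Set 1437458_x_at read 104, 387 and 109 in miR-9/9* cells, against 49.5, 66.8 and 33.1 in empty vector cells. All 4 sets kept the groups apart, and in all 4 the array of number 2 was the highest of its group in both groups. For 1437689_x_at the signals were 77.8, 210.4 and 66.3 in miR-9/9* cells, against 31.7, 39.1 and 23.6 in empty vector cells. For 1418626_a_at they were 41.1, 129 and 35.3 in miR-9/9* cells, against 13.4, 24.7 and 6.06 in empty vector cells. The mean log2 differences were between 1.16 (1454849_x_at) and 1.501 (1437458_x_at). Number 2 had the largest difference in each, from 1.77 to 2.28, while numbers 1 and 3 gave values from 0.73 to 1.35. For the brightest set, the difference was 0.80 without miR-9/9* replicate 2.

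Cfp encodes properdin, which stabilises the convertase of the alternative pathway and is made by myeloid cells. Its 2 probe sets differed in their pattern. Set 1447537_at read 23.1, 22.7 and 24.2 in miR-9/9* cells, against 31.0, 45.1 and 44.4 in empty vector cells, so it was lower in every number and the groups did not overlap. The brighter set 1452279_at read 101, 66.5 and 118 in miR-9/9* cells, against 75.2, 213 and 158 in empty vector cells, and here the groups overlapped. The mean log2 differences were both -0.50, but within the numbers the brighter set gave 0.36, -1.47 and -0.38. Its size rested on single arrays, being -0.30 without miR-9/9* replicate 2, -0.87 without empty vector replicate 1 and -0.21 without empty vector replicate 2. With the numbers as pairs it was -0.93 when number 1 was left out in both groups, -0.0076 when number 2 was and -0.55 when number 3 was.

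F10 encodes factor X, whose active form cuts prothrombin. Its brightest set, 1449305_at, read 331, 485 and 239 in miR-9/9* cells, against 267, 310.4 and 194 in empty vector cells. The groups overlapped, and in both the order was number 2, then 1, then 3. The range between numbers was 0.98 on the log2 scale in miR-9/9* cells and 0.64 in empty vector cells, both larger than the mean difference of 0.40. Set 1418992_at read 68.5, 107 and 48.9 in miR-9/9* cells, against 65.8, 70.4 and 24.8 in empty vector cells. Set 1418993_s_at read 89.0, 128 and 44.9 in miR-9/9* cells, against 77.3, 77.4 and 47.5 in empty vector cells. Within the numbers the brightest set differed by 0.29, 0.62 and 0.28, whereas 1418993_s_at was lower in number 3, at -0.06. Without miR-9/9* replicate 2 the difference of the brightest set was 0.15, without miR-9/9* replicate 3 it was 0.64, and without empty vector replicate 3 it was 0.22.

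C5ar1 encodes the receptor for the chemotactic fragment C5a, found on mature granulocytes and monocytes. Set 1422190_at read 1.06, 8.09 and 0.862 in miR-9/9* cells, against 0.595, 4.95 and 6.38 in empty vector cells. Set 1439902_at read 0.581, 2.94 and 0.784 in miR-9/9* cells, against 3.01, 0.454 and 2.79 in empty vector cells. Every reading was dim, the groups overlapped in both sets, and the receptor was not tested.

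**Figure D2:**
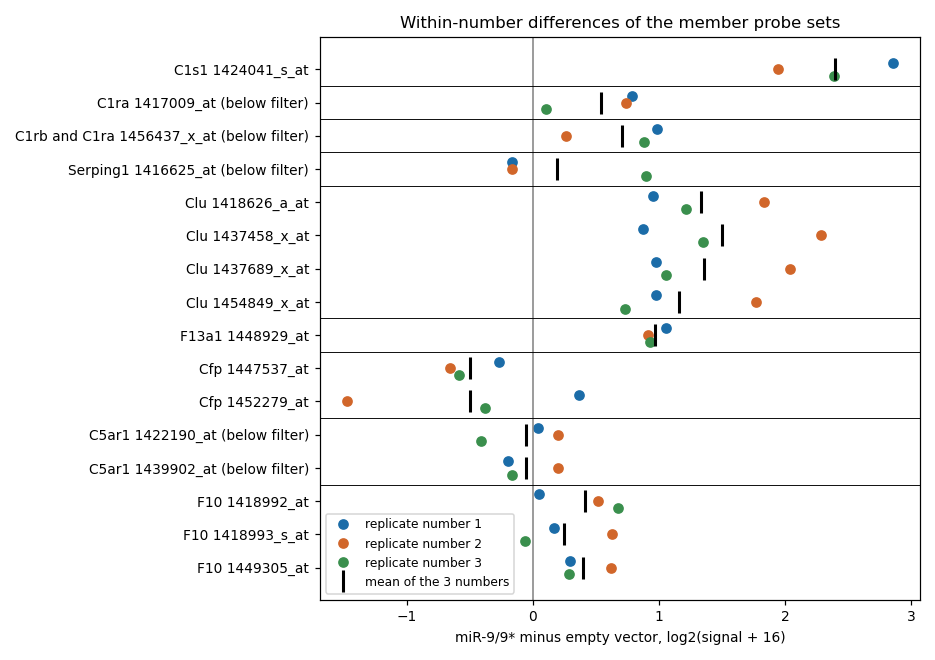
Differences between miR-9/9* and empty vector cells in log2(signal + 16) for the 16 member probe sets. Points are the 3 replicate numbers and black bars their mean; the F13a1 points lie close together at 0.91 to 1.05, the Clu points of number 2 lie apart from the others, and the points of the brighter Cfp set fall on both sides of 0.

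Over the 16 probe sets, all miR-9/9* arrays were above all empty vector arrays in 8 (C1s1, C1ra, the shared C1rb and C1ra set, 4 of Clu and F13a1), where 4.96% of all probe sets on the array were so. They were all below in 1, a Cfp set, where 3.99% of all probe sets were so, and the groups overlapped in the other 7. Signals were higher in every number in 10 sets, against 17.4% of all probe sets, and lower in every number in 1, against 13.4%. Of the 16 sets 11 passed the filter on dim values, and 5 members entered the fit over all genes: C1s1, Clu, F13a1, Cfp and F10. C1s1 passed the filter through its miR-9/9* arrays alone. The members were chosen on the contrast of that fit, so nothing is read from how many of them it called or from the shares of all genes that stand beside these counts. In limma without a block it called 2 members, C1s1 and F13a1, higher at an adjusted p of 0.05 (0.0196% of all genes tested were called higher). That count was 0 when empty vector replicate 1 was left out and 1, C1s1, when any other single array was. F13a1 was thus not called without the block once any single array was left out. Without the block C1s1 was called in 12 of 14 other settings and F13a1 in 5 of 15. With the replicate number as a block it called the same 2 with Clu and F10 (1.51% of all genes tested). Over 9 settings with the block, C1s1 and F13a1 were called in 9, Clu in 7 (not when the variance trend or the filter was dropped) and F10 in 4. F10 was not called in those 2 settings, after quantile normalization, or when number 1 or number 2 was left out. Cfp was called in 1 of the 9, lower, when number 1 was left out.

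The remaining genes of the systems were taken from lists and were tested. These lists too were chosen with earlier results of these data known, so their counts are not an independent comparison. Of 42 complement genes outside the members 33 had a probe set and 10 passed the filter, and of 45 coagulation and fibrinolysis genes 41 had one and 13 passed. Most of the cascade was therefore dim in both groups. Of the 23 complement genes under the limit, including C2, Cfb, Hc (the C5 gene) and C9, 16 had every array below 12.9 and the highest reading of any was 21.7. Of the 28 coagulation genes under it, 24 had every array below 12.9, among them thrombin (F2), tissue factor (F3), the fibrinogen chains Fga, Fgb and Fgg, and the plasminogen activator Plau. The median log2 difference was -0.02 for the 10 complement genes and 0.10 for the 13 coagulation genes, against 0.0091 for all genes tested. In limma without a block 0 genes of either list were called, where 0.0588% of all genes tested were. At an unadjusted p under 0.05 stood 2 genes of each list, and 470 of all 10209 genes tested. With the block, 2 of the 10 complement genes (1 higher and 1 lower) and 2 of the 13 coagulation genes (1 higher and 1 lower) were called, against 2.96% of all genes tested, 1.51% higher and 1.45% lower.

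Both called complement genes encode membrane inhibitors that protect a cell from complement on its surface, and they moved in opposite directions. Cd55, decay-accelerating factor, dismantles the C3 convertase. Set 1460242_at read 847, 707 and 1383 in miR-9/9* cells, against 1451, 1145 and 2172 in empty vector cells. The groups overlapped, yet each miR-9/9* array was below its numbered counterpart, by 0.77, 0.68 and 0.65 on the log2 scale. Cd55 fell by 0.70 (SE 0.0673, limma with the block, adjusted p = 0.00177, against 0.999 without it). Its other 2 probe sets, at -0.61 and -0.72, were lower in every number too, and the call held in 9 of 9 settings with the block. Without the block the difference was -0.45 when empty vector replicate 3 was left out and -0.97 when miR-9/9* replicate 3 was.

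Cd59a encodes protectin, which stops the membrane attack complex from forming. Set 1418710_at read 42.9, 107 and 28.4 in miR-9/9* cells, against 23.3, 24.8 and 9.42 in empty vector cells. The groups were just apart, and number 2 had the largest difference, 1.59, against 0.58 and 0.80 in numbers 1 and 3. Cd59a rose by 0.99 (limma with the block, adjusted p = 0.0282, against 0.982 without it). Without the block the difference was 0.57 when miR-9/9* replicate 2 was left out. Leaving out replicate 2 of both groups ended the blocked call (adjusted p = 0.0707, log2 difference 0.69). So did dropping the variance trend (0.110) or the filter (0.162), and adding 64 in place of 16 (0.0546, log2 difference 0.52). Its second set, 1429830_a_at, was higher in 2 of 3 numbers. Cr1l and Cd46, further regulators of C3 on the cell surface, had log2 differences of -0.11 and -0.23 and did not pass. The brightest uncalled members of the list were C1qbp, a mitochondrial protein that can bind C1q, at 3038 ± 119 in miR-9/9* cells and 2897 ± 403 in empty vector cells, and the integrin chain Itgb2, at 980.0 ± 144 in miR-9/9* cells and 937 ± 101 in empty vector cells (SD, n = 3 each).

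Among coagulation genes Vwf encodes von Willebrand factor, which tethers platelets and carries factor VIII. It read 86.3, 452 and 40.1 in miR-9/9* cells, against 33.9, 242 and 21.6 in empty vector cells. Number 2 was by far the highest in both groups, so the groups overlapped, and within the numbers the differences were 1.04, 0.86 and 0.58. Vwf rose by 0.82 (limma with the block, adjusted p = 0.00776, against 0.999 without it), but did not pass once the variance trend (0.0581) or the filter (0.0562) was dropped. Without the block the difference turned to -0.05 when miR-9/9* replicate 2 was left out. It was 1.48 without miR-9/9* replicate 3, 0.50 without empty vector replicate 1, 1.68 without empty vector replicate 2 and 0.29 without empty vector replicate 3.

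Plaur encodes the receptor that holds urokinase at the cell surface for fibrinolysis. It read 90.8, 84.3 and 94.3 in miR-9/9* cells, against 122, 150.2 and 133 in empty vector cells, and the groups did not overlap. Plaur fell by 0.51 (limma with the block, adjusted p = 0.0361, against 0.493 without it). It did not pass when replicate 2 was left out (adjusted p = 0.106, log2 difference -0.40), or when the variance trend (0.110) or the filter (0.127) was dropped. The thrombin receptor F2r, at 5248 ± 289 in miR-9/9* cells and 4762 ± 397 in empty vector cells, did not pass, nor did F2rl2, at a log2 difference of 0.35 (limma with the block, adjusted p = 0.0598). Lman1, a cargo receptor for factors V and VIII, stood at -0.11, with probe sets of both signs.

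**Figure D3:**
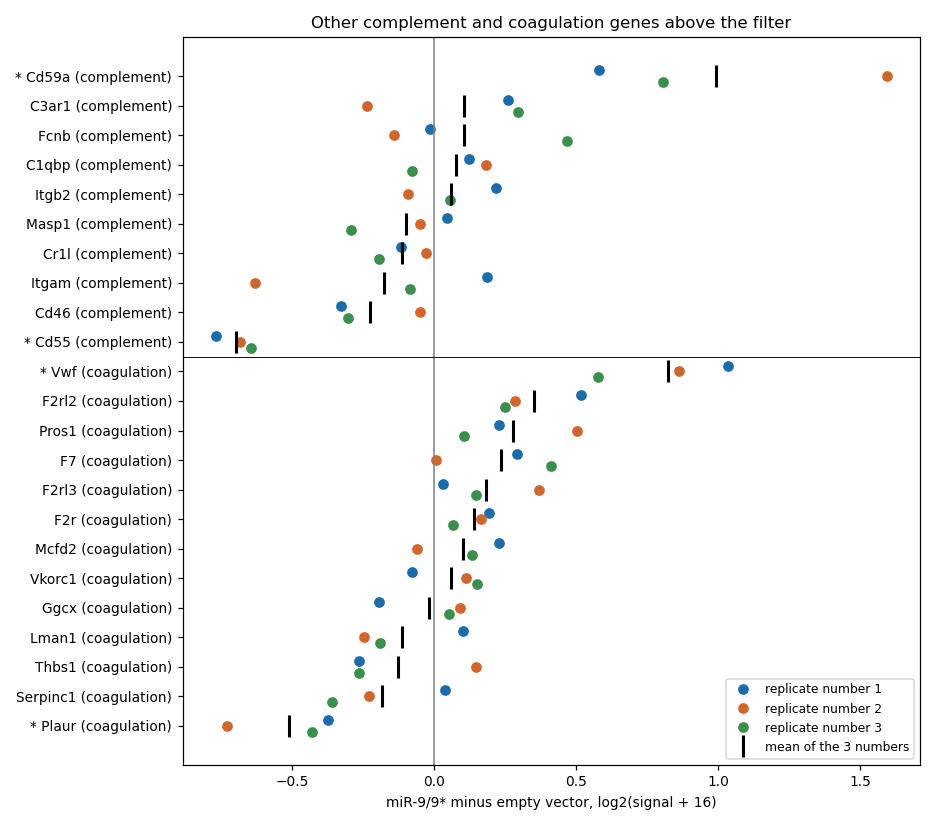
Differences between miR-9/9* and empty vector cells in log2(signal + 16) for the 10 complement and 13 coagulation genes outside the members that passed the filter. Points are replicate numbers, bars their mean, and stars mark the 4 genes called with the replicate block; Cd59a and Vwf lie to the right of 0, and Cd55 and Plaur to the left, in every number.

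The genes next to C1s1 and F13a1 were set beside them, in the order of the RefSeq gene table, taking 4 with a probe set on each side. Of the 8 around C1s1, C1ra was the nearest and 6 passed the filter. Their log2 differences were between -0.12 (Phb2) and 0.21 (Ptpn6), and 0 were called with or without the block. Of all genes tested 2.96% were called with the block and 0.0588% without it. The dim neighbours C1ra and 1700027F06Rik, on the same side, stood at 0.54 and 0.38 and were higher in every number. The nearest on the other side, Lpcat3, read 504, 546 and 570.2 in miR-9/9* cells, against 581, 620 and 539 in empty vector cells. Of the 8 around F13a1 5 passed, with log2 differences from -0.40 (Ssr1) to 0.22 (Fars2). Ssr1, a subunit of the translocon-associated complex, was the only one called, lower with the block (limma adjusted p = 0.0301, against 0.995 without it), and not without replicate 1 (0.204), a variance trend (0.148) or a filter (0.120). Averaging its probe sets brought the difference to -0.20. Nrn1 and Ly86, on either side of F13a1, stood at -0.09 and, though dim, at 0.24.

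**Figure D4:**
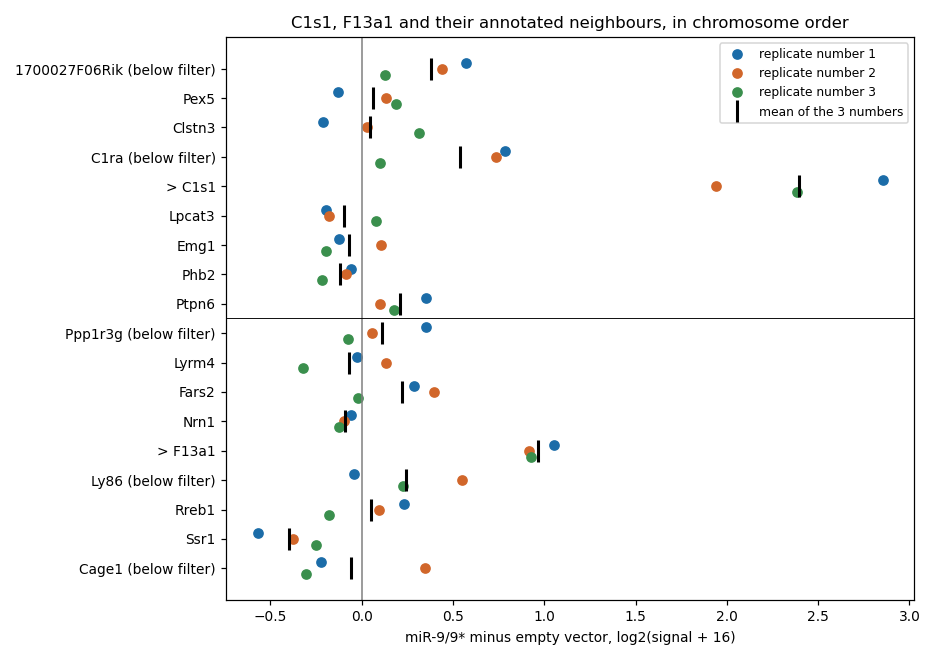
Differences between miR-9/9* and empty vector cells in log2(signal + 16) for C1s1 and F13a1 (each marked >) and the 4 annotated genes with a probe set on either side, in chromosome order. Points are replicate numbers and bars their mean; C1s1 at 2.39 and F13a1 at 0.97 stand right of all their neighbours.

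Over the 6 arrays the log2 values of C1s1 and F13a1 correlated at a Pearson r of 0.986, which gave F13a1 place 4 among the genes most like C1s1. The others of the first 5 were Pou5f2 (r = 0.998), Nap1l4 (0.993), Abhd14a (0.986) and Wdr45b (0.984). Most like F13a1 were Nap1l4 (r = 0.994), the copper importer gene Slc31a1 (0.994), S100a4 (0.992), the red cell glycophorin gene Gypc (0.991) and Pou5f2 (0.991). In each of these genes all miR-9/9* arrays were above all empty vector arrays. The 6 points of such a correlation form 2 groups and share arrays, so r mostly repeats that step and is given as a description. The steps differed widely in size, from 0.12 for Nap1l4, which read 676, 669 and 665 in miR-9/9* cells, against 613, 616 and 613 in empty vector cells, to 0.73 for Gypc.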

How the data were processed

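Messenger RNA of 6 samples was measured on 1-colour Affymetrix arrays. The deposited values are intensities on a linear scale, made with MAS5 (version not given), per the submitters' processing notes; their 2% trimmed mean is 100 on every array. Detection calls were not used here. Probe sets were named from a 2016 platform annotation, and 34754 of 34958 with 1 symbol matched a RefSeq table of GRCm38.p6, which changed 0 symbols. Groups and numbers came from the sample titles.

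Each gene was represented by its probe set with the highest mean of log2(signal + 16) among those with 1 symbol. Sets with a mean under the median of all non-control sets, 4.86 (a signal of 12.9), were left out, leaving 10209 genes. The groups were compared in R 4.3.3 by limma 3.58.1 (two-sided moderated tests from lmFit and eBayes, prior variance following the mean), with Benjamini-Hochberg adjustment over all genes tested and a threshold of 0.05. The main fit has no block. Deviations of same-numbered arrays from their group means correlated at 0.491, 0.616 and 0.680 over genes. The numbers were therefore read as pairs in the alternative fit, and blocked values are given where calls change. The titles number the samples within each group without stating that equal numbers belong together, so this pairing was inferred from the same data. Without the block a p-value sets the difference against the spread of arrays within the groups. With the block it sets it against the spread of the differences within the numbers. The number of arrays limits precision. The fit was tested on simulated data.

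Members and lists were chosen with earlier results of these data known. Set apart for naming from each list were all called genes and, up to 4 in all, the brightest others. To these came all members, 4 neighbours on each side, and the 5 genes most like C1s1 and F13a1. Not all of the genes set apart are named in the text. Other list genes, Cr1l, Cd46, F2rl2, Il3ra, Mpo and Pf4 among them, were chosen after their values were seen. Varied in turn were the pseudocount, the filter, the normalization, the variance model, the use of probe sets, the block and the arrays included.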

Additional observations from a re-analysis of the deposited data

How the results depend on the processing

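The counts of called genes moved with the settings. Over all genes tested, 6 were called without a block and 302 with the replicate block. Without a block the count was 2 with a pseudocount of 1, 0 without a filter (892 genes at an unadjusted p under 0.05), 4 with a stricter filter, 3 without a variance trend, 1 with probe sets as units, and 0 to 8 when single arrays were left out. With the replicate block it was 38 without a variance trend, 74 without a filter, 282 and 293 with pseudocounts of 1 and 64, 273 after quantile normalization, and 164, 354 and 396 without replicate number 1, 2 and 3 in turn.

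Members called numbered 2 without a block and 4 with it. Without a block the number was 1 with a pseudocount of 1, a stricter filter (which C1s1 did not pass), no variance trend or probe sets as units, 0 without a filter, and 0 to 1 without single arrays. With the block it was 2 without a variance trend or filter, 4 with either pseudocount, 3 after quantile normalization, and 3 to 4 without 1 number. In the complement list the block gave 2, without a variance trend or a filter or with a pseudocount of 64 1, with a pseudocount of 1 or quantile normalization 2, and without 1 number 1 to 2. In the coagulation list the block gave 2, without a variance trend or a filter 0, with either pseudocount or quantile normalization 2, and without 1 number 1 to 3. All settings without a block gave 0 in both lists. C1s1, F13a1, Clu, F10 and Cfp kept their direction in every setting that gave a value.

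Some differences changed sign, most of them small and of uncalled genes. Without a block those of Vwf and Csf2rb, which were called with it, did so as well. Averaging probe sets gave 0.019 for Phb2 and -0.011 for Fars2. Leaving out single arrays gave ranges of -0.051 to 0.152 for Itgb2, -0.130 to 0.237 for Pex5, -0.072 to 0.126 for Rreb1, -0.035 to 0.168 for Clstn3, -0.216 to 0.082 for Emg1, -0.179 to 0.053 for Lyrm4, -0.051 to 1.68 for Vwf and -0.721 to 0.018 for Csf2rb. With the replicate block and without 1 number, Itgb2 stood at -0.019, Phb2 at 0.071, Rreb1 at -0.042, Clstn3 at -0.091 and Lyrm4 at 0.053. The cause was not tested. Scaling moved the median of all probe sets from 0.012 to -0.00039 (quantile) and -0.0084 (median centring).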
